A study of Rattus norvegicus with 24 samples.

Results

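The thyroid glands of untreated rat pups collected at 10 PM were described across genes, without comparison of the sexes or of treatments. The 8 arrays are every array of the series labelled as a control and as collected at night, out of 24 arrays in 6 groups of 4. They came from RccHan Wistar pups at postnatal day 35 ± 3, 4 arrays from females (F1 to F4) and 4 from males (M1 to M4), and the pups and their dams had drunk tap water in rooms lit on an equal cycle of light and dark. The acrylamide arms, which drank water giving 3 mg acrylamide per kg each day, beginning at gestational day 6, and the female glands collected in the morning were not analysed here. The labels mention 5 pups of each sex per collection time and do not tie a replicate number to a pup, so that the spread between arrays may be partly technical. Excised glands were frozen whole, and total RNA was labelled with Cy3 for Agilent 1-colour arrays.

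The thyroid is built of follicles, whose epithelial cells secrete thyroglobulin, take up iodide and couple it to thyroglobulin to make thyroid hormone. Between the follicles lie C cells, which secrete calcitonin from Calca, a gene that also encodes calcitonin gene-related peptide through alternative splicing. The parathyroid glands, the source of parathyroid hormone (Pth), sit on or in the rat thyroid, and strap muscle, fat, trachea, oesophagus and thymus lie close by.

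The probes behind the 3 genes that mark these endocrine cells are shown first, because every level below is the signal of a probe like these. Each line gives the last 30 of the 60 bases of a probe, 5′ to 3′, as the array files hold them on the rn4 build of the rat genome, with the hexamer AATAAA, the commonest polyadenylation signal, in capitals.
Tg, chr7:104220718-104220747, plus strand: caaccatttgctttcAATAAAgtatttgca
Pth, chr1:171240722-171240751, minus strand: tcttctactgtAATAAAagtttgaaatttg
Calca, brighter probe, chr1:172688192-172688221, minus strand: atctggaatctccaatgggtgaggagaaag
Calca, dimmer probe, chr1:172686203-172686232, minus strand: actgttaatgttgtcacttgtgagcttaat
The stretches shown for Tg and Pth held 1 AATAAA each and those of Calca held none. Over the whole 60 bases, this hexamer was present in 8.4% of the 30367 probes on the array and in 10.3% of the 18865 probes used here. The dimmer Calca probe lies downstream of the brighter one on the minus strand, so the 2 probes read different stretches of the gene.

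The level of a gene was the log2 processed signal of its probe minus the 75th percentile of the array, so that 0 marks a probe brighter than 75% of the array and 1 unit is a 2-fold difference. A gene counted as measured when 3 or more of the 4 arrays of either sex read its probe well above background, and its brightest probe was used. By this rule 18865 genes were measured, 13395 of them under a gene symbol, and 17528 were well above background on all 8 arrays. Mean levels ran from -7.67 to 8.97 with a median of -1.10. The signal of a gene depends on the probe that reads it. For 2512 genes with 2 or more measured probes, the brightest and dimmest differed by a median of 2.02, and by over 2 for 50.2% of them. Probe sequence, the stretch of the gene read and the naming of probes were not told apart in these gaps. The order of genes is therefore an order of signals and not of RNA abundance.

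Some arrays stood apart. Between 73.5% and 77.5% of spots were well above background and none was saturated. The 75th percentile of the processed signal was 873.6 on M4 and 1415.8 to 1779.9 on the other 7 arrays, and after scaling the spike-in RNAs had a median level of 4.23 on M4 against 1.32 to 2.56 elsewhere. The first principal component held 33.8% of the spread, with a score of 48.2 for M4 and -22.9 to 11.2 for the others. Its leading genes on the M4 side include muscle genes such as Chrne, Myl10 and Mypn. On M4, 392 genes were higher and 58 lower than the median of the arrays by over 1, whereas on M3 70 were higher and 296 lower. All females were on 1 slide and all males on another, so sex and slide cannot be told apart, and the spread within each sex is given beside the overall spread for the median over genes and for Tg, Calca and Pth. Of the 10 spike-ins, the 2 brightest, at mean levels of 8.93 and 7.92, had an SD of 0.35 and 0.60 over the arrays and the other 8 one of 0.77 to 0.93, so that the spike-ins spread least at the top of the scale. As a check of labels, the Y-linked Ube1y1 was not well above background on any female array (levels of -8.34 to -8.00) and was so on all male arrays (-4.16 to -3.41). The probe named Sry was well above background on all 8 arrays, at -6.18 to -5.39 in females and -5.30 to -4.88 in males. So was a probe assigned to Uty here but named Utx on the array, at -4.19 to -3.42 in females and -5.22 to -4.11 in males. The Utx probe therefore cannot be taken as a reading of a Y-linked gene.

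The signal of these glands was led by muscle, thyroid, C cell and parathyroid transcripts together with ribosomal proteins. The 30 brightest genes with a symbol lay within the first 51 ranks. Of these, 11 were ribosomal protein genes, 7 were skeletal muscle genes and 2 were globins, while Tg, Calca and Pth each stood for their own cell type. Among the rest were Atp5f1a of the ATP synthase, the cyclophilin gene Ppia, the ferritin gene Fth1, the transketolase gene Tkt and the G protein gene Gnas. The 5 genes that belonged to none of the fixed lists included Stfa2 (mean 8.63 ± 0.30, SD, n = 8) and Ceacam9 (8.01), each read by a single probe. The spread of the 30 was between 0.08 and 0.60, with 18 under 0.2, and 15 of them were highest on M4. The share of all measured genes highest on M4 was not counted. Other probes of 15 of the 30 genes, 20 probes in all, were well above background on all 8 arrays, but their levels differed widely. Those for Rplp0 (8.04) and Fth1 (7.79) were near the probe used. Others were far dimmer, such as 1 for Rpl37a (-2.51) and those for Gnas (1.35) and Hba-a1 (4.31).

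**Figure D1:**
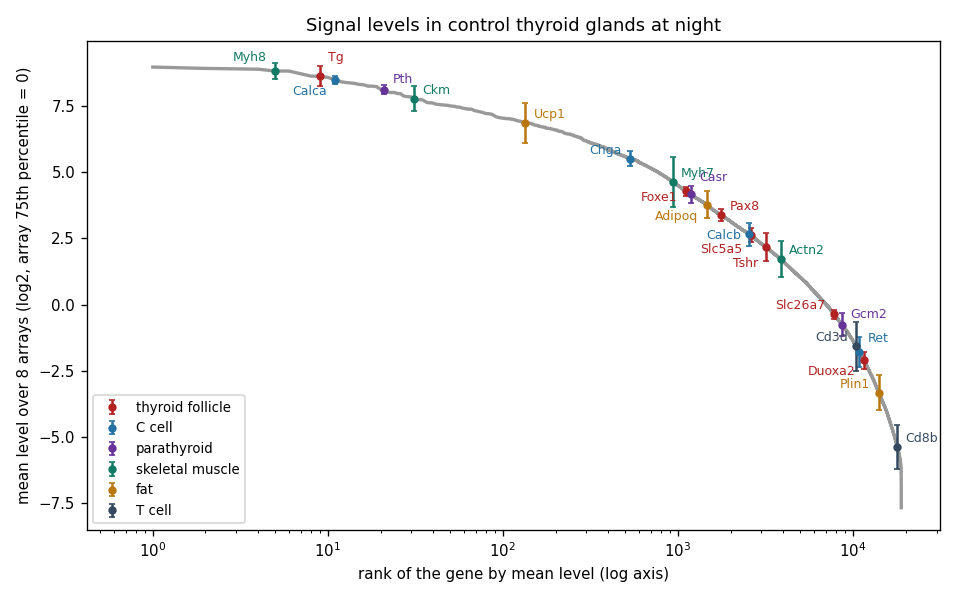
Mean level of each measured gene (y axis, log2 with the 75th percentile of the array at 0) against its rank (x axis, log scale), with named markers of 6 tissues as points and bars of 1 SD over the 8 arrays. Myh8, Tg, Calca and Pth lie within the first 21 ranks, whereas markers of T cells lie below 0.

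Thyroglobulin, the protein on which thyroid hormone is made, was at rank 9. Its level was 8.75, 8.71, 8.76 and 8.58 in F1 to F4 and 8.63, 8.36, 7.95 and 9.27 in M1 to M4 (mean 8.62 ± 0.38, with an SD of 0.08 in females and 0.55 in males). M3 and M4 were the lowest and the highest of the 8, and the females lay between them. One spot or more of this probe lay in an area of low signal on M3 that is described below; with that area left out M3 was at 8.34, next to M2 at 8.36, and the SD over the 8 arrays was 0.29.

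Of 21 follicular markers, 20 were measured, all of them well above background on all 8 arrays. The median SD of the list was 0.27 against 0.227 over all measured genes. Duox2, an oxidase that supplies hydrogen peroxide for iodination, averaged 2.38 ± 0.09, its maturation factor Duoxa2 -2.11 ± 0.31 and Duox1 0.42 ± 0.31. The iodide importer Slc5a5 averaged 2.63 ± 0.25 and the anion exchanger Slc26a7 -0.37 ± 0.17. The probe of Slc26a4, which encodes pendrin, was not well above background on any array. Among genes of later handling, the deiodinases Dio1 (1.17 ± 0.18) and Iyd (0.69 ± 0.29) were both measured. The transcription factors that specify the follicular cell averaged 4.28 ± 0.16 for Foxe1, 3.38 ± 0.24 for Pax8 and 3.17 ± 0.25 for Nkx2-1.

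Of the 20 follicular markers measured, 2 had an SD over 0.5, as did 9.58% of all measured genes, and these 2 varied in a like order. The receptor for thyrotropin, Tshr, was at 1.67, 2.73, 1.95 and 3.09 in F1 to F4 and 1.68, 2.23, 2.31 and 1.74 in M1 to M4 (2.17 ± 0.52). The transcription factor Hhex was at 2.17, 2.69, 2.28 and 3.39 in F1 to F4 and 1.96, 2.48, 2.57 and 1.52 in M1 to M4 (2.38 ± 0.55). Both were highest on F4, then on F2, M3 and M2, which are the 4 arrays with scores below 0 on the first component (-22.9 to -14.0), and Hhex is itself among the leading genes of that component. The part of this split of the arrays in their order was not tested. Neither followed Tg, which was highest on M4. Averaged over its members, the follicular list lay between 1.66 (M1) and 2.08 (F4). In whole glands, fewer cells of a type and less RNA per cell cannot be told apart.

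Calca, the C cell gene at rank 11, was at 8.63, 8.56, 8.37 and 8.15 in F1 to F4 and 8.47, 8.51, 8.59 and 8.60 in M1 to M4 (8.49 ± 0.16, with an SD of 0.21 in females and 0.06 in males). The dimmer probe shown above averaged 4.82 ± 0.30 and, like the brighter one, was highest on F1 and lowest on F4. Of 16 C cell markers 15 were measured, and Iapp was well above background on no array. The granule proteins Chga (5.51 ± 0.29) and Chgb (3.78 ± 0.34) and the related peptide gene Calcb (2.65 ± 0.45) followed Calca in the list. Somatostatin (Sst), made by some C cells, had the widest spread, at 0.21, -0.59, -0.07 and 2.07 in F1 to F4 and 0.60, 0.28, -1.98 and -0.38 in M1 to M4 (0.02 ± 1.14). Of the 15 measured markers 12 were lowest on F4, Calca among them, and 10 were highest on F1. Sst was instead highest on F4, as was Chga (5.92). The receptor tyrosine kinase Ret (-1.78 ± 0.57) was also highest on F4 and was lowest on M4, at -3.03. The share of all measured genes lowest on F4 or highest on F1 was not counted, so the counts of 12 and 10 have no background.

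Parathyroid markers were read in every sample. Pth, at rank 21, was at 8.20, 8.14, 8.06 and 7.94 in F1 to F4 and 8.19, 7.96, 7.97 and 8.44 in M1 to M4 (8.11 ± 0.17, with an SD of 0.11 in females and 0.22 in males). All 6 parathyroid markers were measured on all 8 arrays and none had an SD over 0.5, which with 6 genes is near the 9.58% of all measured genes. The calcium-sensing receptor Casr averaged 4.16 ± 0.32 and Gcm2, the factor that specifies the parathyroid, -0.76 ± 0.43. The mean of the list lay between 0.82 (M3) and 1.70 (M1).

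**Figure D2:**
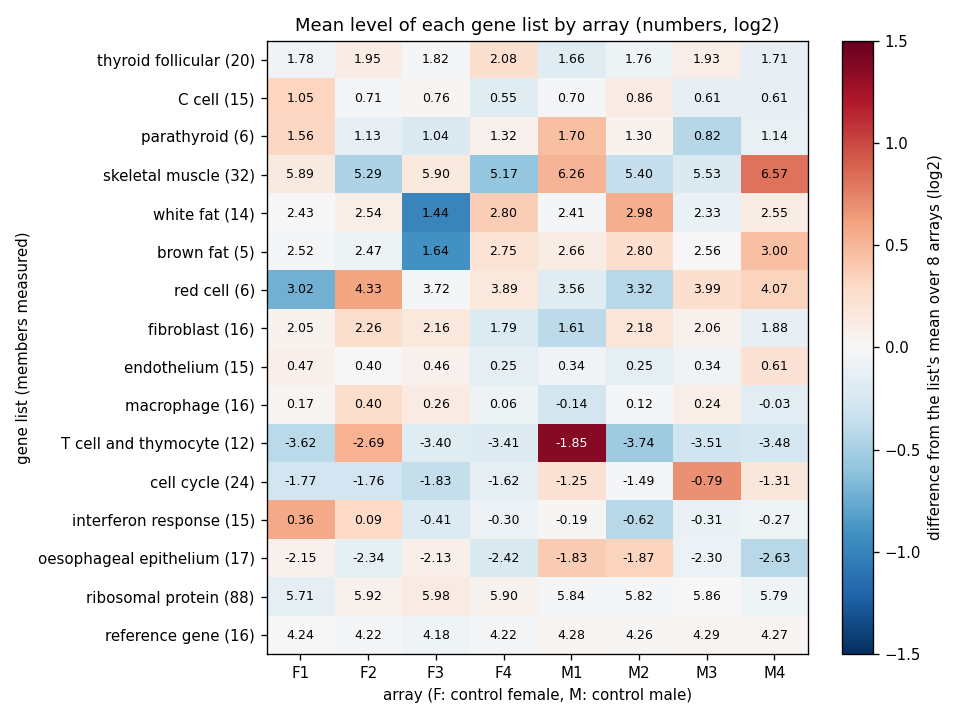
Mean level of the measured members (printed in each cell, log2 with the 75th percentile of the array at 0) for 16 gene lists (y axis, members measured in brackets) on the 8 arrays (x axis), coloured by the difference from the mean of the list over the arrays. Skeletal muscle spans 5.17 to 6.57, white fat 1.44 to 2.98, and the T cell list stands apart on M1 at -1.85.

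Among lists of tissue markers, skeletal muscle had the highest median level (6.13). All 32 members found on the array, of 34, were measured on all 8 arrays, and 22 of them were in the top 5% of genes by level, a share that is 5.0% over all genes. Myh8, the perinatal fast myosin, was at rank 5 with 8.93, 8.78, 8.85 and 8.52 in F1 to F4 and 9.02, 8.61, 8.48 and 9.41 in M1 to M4 (8.82 ± 0.31). The troponins Tnni2 (8.32 ± 0.36) and Tnnc2 (8.25 ± 0.35), the calcium pump Atp2a1 (8.25 ± 0.43) and the creatine kinase Ckm (7.77 ± 0.47) were in the same range. These are genes of the contractile apparatus and its energy supply in striated muscle, tissue that lies against the gland.

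The muscle genes also varied over the arrays. The mean of the list was 5.89, 5.29, 5.90 and 5.17 in F1 to F4 and 6.26, 5.40, 5.53 and 6.57 in M1 to M4, and 31 of the 32 members were highest on M4. For this and the other lists, the share of all measured genes highest or lowest on each array was not counted. Such counts therefore have no background to be read against. The lowest array differed between members, being F4 for 14, M3 for 10 and F2 for 5. The 4 arrays with the highest mean, M4, M1, F3 and F1, were also the 4 with first-component scores above 0 (48.2, 11.2, 5.5 and 8.1). The muscle genes went into that component, and its leading genes on the M4 side include the muscle genes Chrne, Myl10, Mypn, Cavin4 and Jph2. These orders are therefore not independent. The same 4 arrays had the highest spike-in medians (4.23, 2.11, 2.56 and 2.45, against 1.32 to 1.92 elsewhere). How far this split of the arrays shapes the muscle order, or the muscle genes shape the split, was not tested. Of the 32, 17 had an SD over 0.5, against 9.58% of all measured genes. The slow myosin Myh7 had the largest SD, at 5.06, 3.50, 4.63 and 3.28 in F1 to F4 and 5.27, 4.01, 5.19 and 6.00 in M1 to M4 (4.62 ± 0.95).

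Slow and fast fibre genes were ordered differently on M3, in a split made after the values were seen. The mean of 5 slow-fibre genes (Myh7, Myl2, Tnnt1, Tnni1 and Tnnc1) was 4.12, 2.95, 3.93 and 2.88 in F1 to F4 and 4.48, 3.26, 4.75 and 5.20 in M1 to M4, so that M3 was second to M4. The mean of 11 fast-fibre genes was 7.27, 6.85, 7.32 and 6.70 in F1 to F4 and 7.60, 6.76, 6.63 and 7.86 in M1 to M4, with M3 the lowest. One of the 11, the myosin light chain Myl1 (4.26 on M3 and 5.47 to 6.55 elsewhere), was read only in the low-signal area of M3. Without Myl1 and without that area, the fast-fibre mean of the other 10 was 6.83 on M3, beside 6.80 on F4 and 6.88 on M2, and the slow-fibre mean was 4.71 on M3. M3 thus stayed among the highest arrays for slow-fibre genes and among the lowest for fast-fibre genes. The fast myosin Myh4, which has no spot in the area, was at 5.35 on M3 and 6.01 to 7.59 elsewhere.

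Promoters of 2 of the muscle genes are shown as examples of sequence. Their part in the order of the arrays was not tested. They are the 250 bases before the RefSeq start on GRCr8, with CAGCTG, an E-box bound by MyoD-family factors, and the CArG box, bound by serum response factor, in capitals.
Ckm, chr1:88189211-88189460, plus strand: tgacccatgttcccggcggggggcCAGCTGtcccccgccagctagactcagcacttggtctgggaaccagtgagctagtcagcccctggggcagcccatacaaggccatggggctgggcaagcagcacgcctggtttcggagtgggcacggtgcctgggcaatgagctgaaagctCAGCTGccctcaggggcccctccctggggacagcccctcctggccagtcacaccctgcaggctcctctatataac
Acta1, chr19:68784195-68784444, minus strand: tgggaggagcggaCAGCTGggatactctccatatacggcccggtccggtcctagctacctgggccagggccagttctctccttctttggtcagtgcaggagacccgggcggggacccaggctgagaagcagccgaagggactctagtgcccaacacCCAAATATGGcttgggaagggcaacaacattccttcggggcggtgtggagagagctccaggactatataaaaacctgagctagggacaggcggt
The Ckm window held 2 CAGCTG and no CArG box, and that of Acta1 (7.37 ± 0.50) held 1 of each. CAGCTG, which reads the same on both strands, occurred in 11 of the 29 promoters that the table holds for 28 of the muscle genes (37.9%) and in 12.0% of all 33469 promoters. The CArG box occurred in 3 of the 29 promoters (10.3%) and in 1.5% of all promoters. These counts describe letters in the windows and show no binding.

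Fat markers were also bright, and most of the white fat markers were lowest in F3. Of 16 white fat markers 14 were measured, and 13 of these were lowest on F3 and 11 highest on M2. The same shares over all measured genes were not counted. The list averaged 2.43, 2.54, 1.44 and 2.80 in F1 to F4 and 2.41, 2.98, 2.33 and 2.55 in M1 to M4. Gpd1 (5.90), the adipsin gene Cfd (5.13), the fatty acid carrier Fabp4 (4.31) and the fatty acid transporter Cd36 (4.20) led it, and the adipokine Retn had the largest SD (3.88 ± 0.97). Ucp1, the uncoupling protein of brown fat, was at 6.83, 7.30, 5.10 and 7.21 in F1 to F4 and 6.84, 7.30, 7.00 and 7.34 in M1 to M4 (6.86 ± 0.74). Cidea, also typical of brown fat, averaged 5.66 ± 0.73 and was lowest, at 4.09, on the same array. The other 3 measured brown fat genes did not all follow: Dio2 was also lowest on F3, but Cox8b was at 5.32 on F3 and F1 and 5.33 on F2, and Ppargc1a was at -2.34 on F3 and lowest on M2 (-2.92). Elovl3 and Zic1 of the brown fat list were well above background on no array.

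Lymphoid signal was low in level and uneven. Of 20 T cell and thymocyte markers 12 were measured, and 8 of the 12 were highest on M1, a share not counted over all measured genes. Cd3g, a chain of the T cell receptor complex, was at -4.93, -1.96, -3.73 and -3.38 in F1 to F4 and -0.15, -4.74, -3.91 and -4.52 in M1 to M4, and F2 was the next highest after M1. Cd247, another chain of that complex, was at -4.98, -2.35, -4.04 and -3.55 in F1 to F4 and -0.21, -4.73, -4.35 and -4.47 in M1 to M4, in the same order at its top. Genes of developing T cells were divided. Rag1, which rearranges receptor genes, was well above background on F2 (-3.92) and M1 (-2.57) alone, as was Dntt (-4.79 and -3.69). Rag2 was above background on F2, F3, M1 and M3, and Ptcra on all 8 arrays, at -2.46 on M1 and -2.44 on M4. The thymic gene Tbata reached -1.54 on M1 and at most -4.57 elsewhere. Of 11 B cell markers 3 were measured.

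Markers of blood and most markers of dividing cells were each highest on 1 array. The shares of all measured genes highest or lowest on each array were not counted. All 6 measured red cell genes were highest on F2, where the list averaged 4.33, and 5 of the 6 were lowest on F1 (3.02). Of 24 measured cell cycle genes 22 were highest on M3, with a mean of -0.79 there and -1.83 to -1.25 elsewhere, and Ccnb2 (SD 0.64) and Cenpf (0.59) had the largest spread. Of 15 measured interferon response genes 12 were highest on F1 (mean 0.36) and 9 lowest on M2 (-0.62), these being genes that viruses and interferon induce. The myelin gene Mbp was also highest on F1, at 3.94 against 2.17 to 3.33 on the other arrays. Neuronal genes peaked on different arrays, Stmn2 on F3 (-1.57), Npy on F4 (-0.19), Nefh on M1 (-1.34) and Prph on M2 (-1.45).

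Among supporting tissues, none of 15 endothelial markers had an SD over 0.5, against 9.58% of all measured genes, and Plvap, of fenestrated capillaries, averaged 5.72 ± 0.23 and Pecam1 2.45 ± 0.06. Of 16 fibroblast markers 2 had an SD over 0.5, near that share, and the list means spanned 0.65 between M1 and F2. The collagens Col1a2 (7.02 ± 0.18), Col1a1 (6.55) and Col3a1 (6.53) were the brightest. Of 16 measured macrophage markers, led by Lyz2 (3.99) and the complement gene C1qb (3.93), 1 had an SD over 0.5, and the list means spanned 0.54.

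Most markers of neighbouring epithelia gave low signals. The 17 measured oesophageal markers averaged -2.63 (M4) to -1.83 (M1). The most variable were Krt78 (SD 0.94), well above background on 7 arrays, and Krt13 (SD 0.87). The basal cell factor Tp63 (2.94) and the ammonium transporter Rhcg (2.23) of that list, and Tppp3 (3.16) of the airway list, were above the 75th percentile of the array. Bpifa1, a secreted protein of airway epithelium, was at 1.38 on F1 and averaged -0.92 ± 1.21. Of markers of tissues that should be absent, 4 of 10 pituitary, 4 of 10 liver and 3 of 9 male germ cell genes were measured, against 71.2% of all 26483 genes on the array. Among them transferrin (Tf, 2.77) and Pomc (-0.29) were well above background on all 8 arrays, while Tshb of the pituitary was so on none.

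Genes of general cell function varied little. Of 90 ribosomal protein genes 88 were measured and 75 of these were in the top 5% by level. Their median SD was 0.12, and 3 of the 88 (3.4%) had an SD over 0.5. Of 77 oxidative phosphorylation genes 76 were measured, with 49 in the top 5%, a median SD of 0.20 and none with an SD over 0.5. All 16 measured reference genes had an SD under 0.5, and the mean of that list lay between 4.18 and 4.29 on all 8 arrays. Gapdh, a glycolytic enzyme used as a reference, was the most variable of these (6.43 ± 0.40), at 7.07 on M4 and 5.96 on M3. Ppia and Tbp had an SD of 0.09 and 0.11. Array M4 was also the highest for Tg and for the muscle list.

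Some clock genes divided the 8 arrays in the same way, although all were labelled with 1 collection time. Dbp, a transcription factor under direct control of the clock, was at 5.15, 5.42, 5.27 and 4.49 in F1 to F4 and 4.66, 4.43, 4.96 and 4.20 in M1 to M4 (4.82 ± 0.44). The clock repressor Nr1d1 was at -1.87, -1.29, -1.86 and -2.48 in F1 to F4 and -2.63, -3.11, -1.67 and -2.64 in M1 to M4 (-2.19 ± 0.61). For both genes F1, F2, F3 and M3 lay above the other 4 arrays with no overlap. Ciart, another repressor of the clock, was well above background on those 4 arrays only, at -4.85, -3.95, -4.83 and -4.45. It passed the filter through them and so cannot count as a further sign of the division. Bmal1, the activator that Nr1d1 represses, ran the other way, at -3.03, -3.10, -3.15 and -2.20 in F1 to F4 and -2.56, -1.82, -3.10 and -2.39 in M1 to M4 (-2.67 ± 0.50). Per2 divided like Dbp, at 0.15, 0.22, 0.17 and -0.24 in F1 to F4 and -0.35, -0.21, -0.03 and -0.74 in M1 to M4. Tef did too, with a narrow gap between M3 and M1, at 2.84, 2.94, 2.77 and 2.30 in F1 to F4 and 2.44, 2.20, 2.50 and 2.27 in M1 to M4. Some clock genes did not follow, among them Nr1d2 and Per1, both highest on M4 (-1.64 and -3.08). Neither did Cry1, at -0.35 on F2, F4 and M3 and -0.02 on M1. Of the 19 clock genes, all measured, 5 had an SD over 0.5, Ciart among them, against 9.58% of all measured genes. The division was seen after the values were known and was not tested. How many of the 19 follow it was not counted. None of the probes of Dbp, Nr1d1, Ciart, Bmal1, Per2 and Tef has a spot in the low-signal areas described below.

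The spread of single genes was small for most of the transcriptome. The median SD over 8 arrays was 0.227, and it was 0.167 within females and 0.236 within males. The 10th and 90th percentiles of the SD were 0.109 and 0.491. An SD over 0.5 was found for 1807 genes (9.58%) and an SD over 1 for 204 (1.08%). Dim genes spread more, with an SD over 0.5 in 21.3% of the lowest 25% of genes by level and 3.9% of the highest 25%. Spots of the same probe on the same array had a median SD of 0.065 to 0.125.

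**Figure D3:**
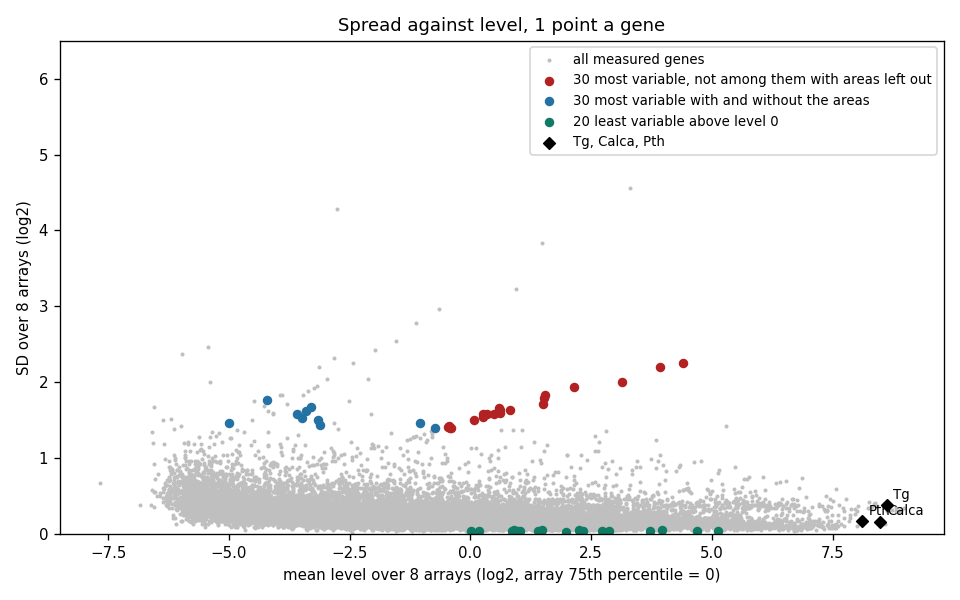
SD over the 8 arrays (y axis, log2) against mean level (x axis, log2 with the 75th percentile of the array at 0), 1 point a gene, with the most and least variable named genes and Tg, Calca and Pth marked. The most variable named genes that drop out once areas of arrays F4 and M3 are left out sit at higher levels than those that stay.

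Most of the most variable named genes had a low value in an area of array F4. Of the 30 with the largest SD, 20 were lowest on F4 and 22 had a spot in an area of that array at rows 1 to 42 and columns 133 to 162. Grin2d, an NMDA receptor subunit, was at 5.50, 5.31, 5.21 and -1.09 in F1 to F4 and 5.17, 5.22, 4.32 and 5.53 in M1 to M4 (4.40 ± 2.25). Ddt, the tautomerase, was at -1.51 on F4 and 4.47 to 4.85 elsewhere, and the deacylase gene Sirt5 at -1.82 against 3.46 to 4.03. Of 84 spots on F4 that were low by over 3, 83 were in this area, and 61 of the 82 probes had a spot elsewhere on the same array, with a median deviation of -0.02. All 20 genes lowest on F4 had a spot in the area, and 19 of them had a second spot outside it. Without the area the level on F4 was 5.28 for Grin2d, 4.93 for Ddt and 4.31 for Sirt5, and for the 19 genes it lay within 0.5 of the range of the other 7 arrays. For Dnajc14 both spots were in the area. On M3 a larger and weaker area lay at rows 175 to 252 and columns 115 to 164, and it held 26 of 46 spots low by over 3. On the other 6 arrays no block of spots deviated by over 0.5.

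**Figure D4:**
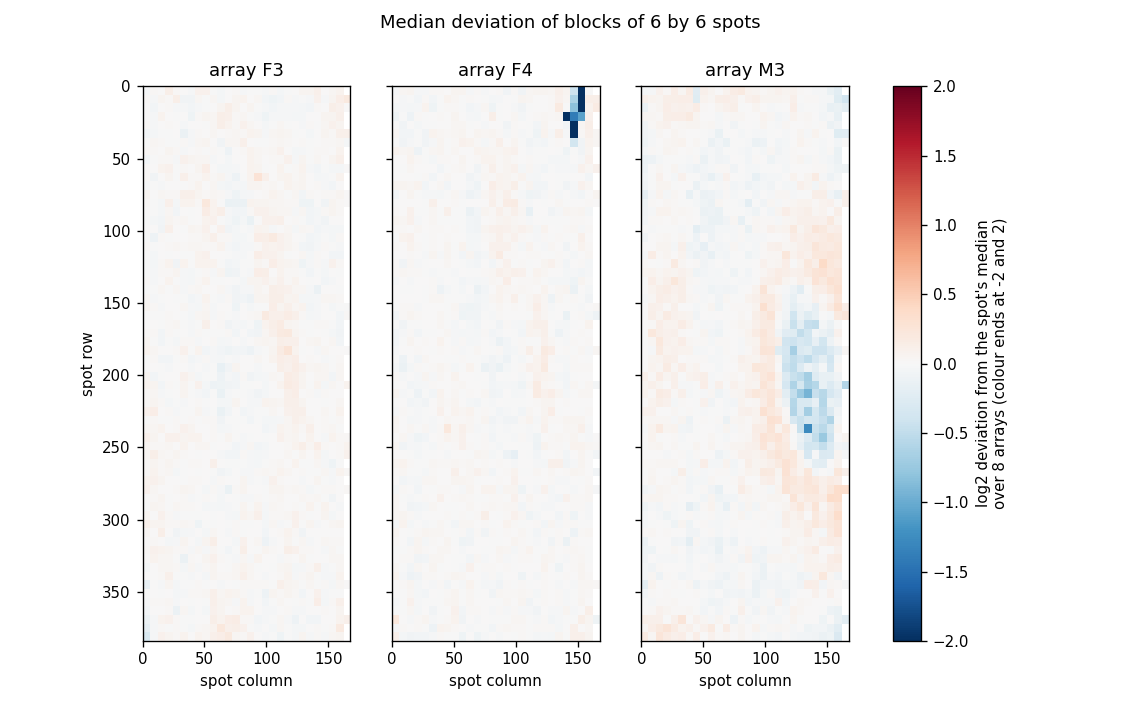
Median deviation of blocks of 6 by 6 spots from the median of the same spots over the 8 arrays (colour, log2, ending at -2 and 2), by column (x axis) and row (y axis) of the array, for F3, F4 and M3. F4 has 10 and M3 has 21 blocks beyond 0.5, and F3, like the other 5 arrays, has 0.

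With these areas left out, 122 genes had an SD over 1, and 10 of the 30 most variable named genes remained among the 30. Ubd, a ubiquitin-like gene, had the largest SD (1.77), with -5.35, -4.68, -5.45 and -5.34 in F1 to F4 and -0.55, -5.13, -2.51 and -4.86 in M1 to M4. Like the T cell genes Cd3g (SD 1.62) and Cd247 (1.59), it was highest on M1. The olfactory receptor Or13p4 was at -5.06, -2.33, -5.77 and -2.15 in F1 to F4 and -2.05, -2.07, -5.14 and -1.97 in M1 to M4, 2 separate levels shared by both sexes. Other genes that entered the 30 after the areas were left out included the muscle acetylcholine receptor subunit Chrne (1.15), the embryonic myosin Myh3 (1.07), the macrophage receptor Trem2 (1.07) and the retinol saturase Retsat (1.05). A second probe for Myh3 had an SD of 1.06. Of the 30, 8 were lowest on M3, among them Ripor2, at -2.54 there and 1.13 to 1.55 elsewhere. A second, dimmer probe for Ripor2, well above background on 5 arrays, was not apart on M3 (-6.11 there and -6.16 to -5.47 elsewhere).

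**Figure D5:**
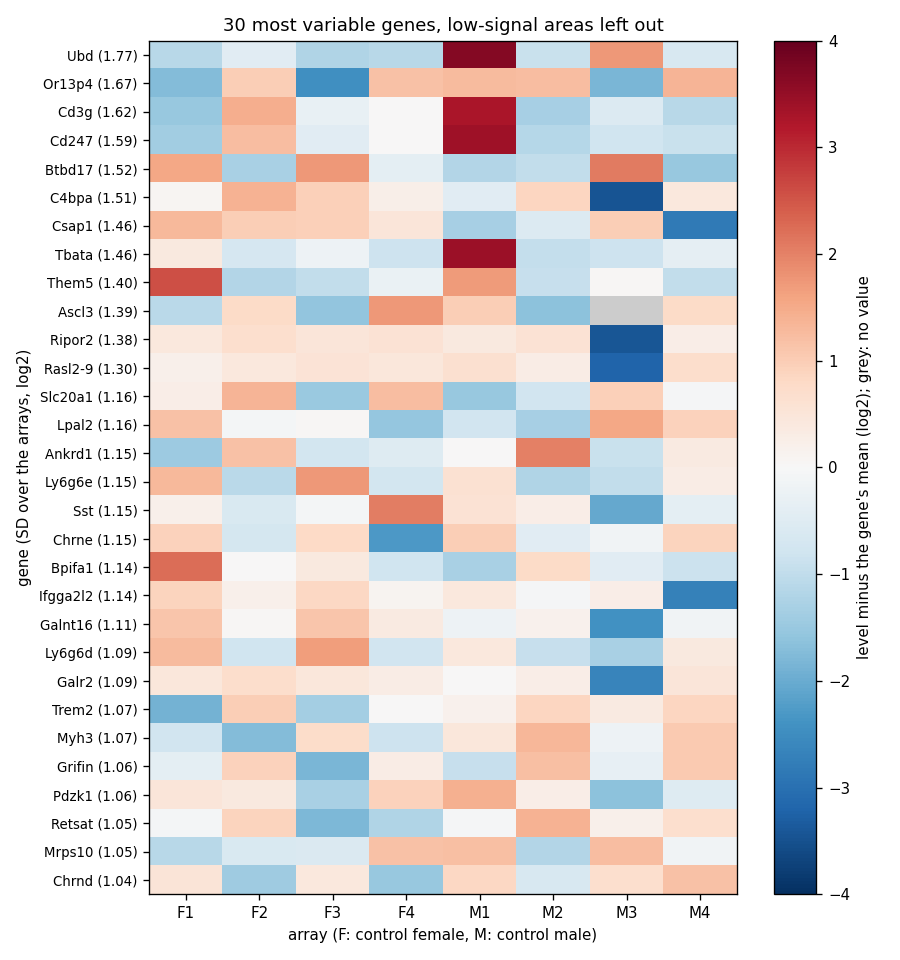
Level minus the mean of the gene (colour, log2) on the 8 arrays (x axis) for the 30 most variable named genes (y axis, SD in brackets), with areas of arrays F4 and M3 left out and grey where no value remained. Ubd, Cd3g, Cd247 and Tbata are high on M1, and C4bpa, Ripor2, Rasl2-9 and Galr2 are low on M3.

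The least variable genes above the 75th percentile of the array had an SD between 0.029 and 0.047. They included Parp1 (2.26 ± 0.03), which senses DNA breaks, the nucleolar protein Ncl (2.85), the ubiquitin-activating enzyme Uba1 (3.71), the dystroglycan gene Dag1 (5.13) and the disulfide isomerase gene P4hb (3.96). None of these 5 is among the reference genes fixed here.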

How the data were processed

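Per the file headers, the authors scanned 1 sample per array and Agilent Feature Extraction 10.1.1.1 wrote the deposited processed signal, a linear intensity per spot corrected for background and spatial trend. Values in the deposited series matrix are log2 with a median of 0 per array, and followed the log2 processed signal. Whole-number flags of 0 or 1, per the file headers, mark spots well above background. Control spots and spots with outlier flags were left out here (298 to 760 per array). Log2 was taken of each spot and the log2 values of the spots of a probe were averaged. The 75th percentile of each array was then subtracted with Python 3.11.15 and pandas 2.3.3. The normexp alternative used limma 3.58.1 in R 4.3.3. Probes were named through accession (17882), symbol (2533) or synonym (671) in the RefSeq table, and 9281 kept the array's name. No test was run between arrays. Some members of the lists are not reported here by name. Named genes were the 30 brightest, the 30 most and 20 least variable, Tg, Calca, Pth, and of each list the 4 brightest and 2 most variable members. Other genes named, including the rest of the follicular list, were chosen after their values were seen. The samples and lists were chosen with earlier results of these data known. The scripts were tested on simulated data. The number of arrays limits precision, and alternatives are given in the closing section.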

Additional observations from a re-analysis of the deposited data

Results flagged for a closer look

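Within each set of 4 arrays, the highest or lowest array was set against the others for list means and named genes. Each list and gene was checked once in females and once in males, giving 72 checks of lists and 160 of genes. Chance gives an array far from the rest in about 5% of such sets, or 1 in 20, and the lists gave 3 of 72 (4.2%), no more than that. The genes gave 29 of 160, a share that cannot be read against chance because most of these genes were chosen for their level or spread on the same arrays. Among lists, T cell markers were high on M1 (-1.85), B cell markers low on F3 (-3.38) and clock genes low on F4 (-1.92). On M1, Cd247 (-0.21) and Tbata (-1.54) were high, and Jkamp, a gene of low spread, was apart at 0.92.

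On F4, 19 of the most variable genes were far below the other females, at -1.09 for Grin2d, -1.51 for Ddt, -1.82 for Sirt5, -2.63 for S100a10, -2.99 for Trappc9, -2.93 for Zranb2, -2.71 for the mast cell protease Cma1, -3.49 for Dnajc14, -3.45 for Unc45a, -3.19 for Arid2, -3.34 for R3hcc1, -3.45 for Usp16, -3.63 for Rnf7, -3.56 for Mark3, -3.52 for Coro7, -3.65 for Sgpp1, -3.93 for Fcgr1a, -3.84 for Cnot7 and -3.85 for Dgkd. The report gives the area of low signal on that array.

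The remaining genes were Stfa2 on M4 (9.26), Rps12 on M2 (7.48), Or13p4 on M3 (-5.09), Btbd17 on M3 (-1.39), and, among genes of low spread, Uba1 on F1 (3.63), Atox1 on M3 (2.82) and Polr2l on F4 (4.73).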

How the results depend on the processing

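The number of genes with SD over 1 was 204 and moved by over 1.5 times under 4 alternatives: 68 with normexp background correction, 116 among genes well above background on all 8 arrays, 447 with no filter, and 122 with areas of arrays F4 and M3 left out, an alternative chosen after seeing the data. Leaving out 1 array at a time gave 167 to 229. The number with an SD over 0.5 (1807) moved with normexp, with no filter and among genes well above background on all 8 arrays. Of 629 counts of list members with an SD over 0.5 under alternatives, 85 moved. The median SD lay between 0.193 (without M4) and 0.231 when 1 array was left out, and the share of the first component between 28.1% (without M4) and 38.6%. Of the 30 brightest named genes, 26 were kept with normexp, 20 with the mean over the probes of a gene and 30 with quantile normalization. Of the 20 least variable, 5 were kept with normexp, 5 without M4 and 8 without M3, so that this list depends on the background correction and on single arrays. Of 592 list means under alternatives, 64 moved by more than the spread between arrays. Levels near background are limited by signal, and 8 arrays limit the precision of an SD.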
